A study of Saccharomyces cerevisiae with 2 samples.

Results

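The region described here is the first 280 nucleotides of the 5′ external transcribed spacer (5′ ETS), the 5′ end of the 35S pre-rRNA. It was defined by position, as rows 1 to 280 of the feature ETS1-2 in the deposited coverage, with earlier results of these data known. It makes up 280 of the 700 nucleotides of the 5′ ETS and of the 6858 nucleotides of the transcript (4.08%). Coverage came from cross-linking and analysis of cDNA (CRAC), in which RNA crosslinked to a tagged protein by UV light in living cells is trimmed with RNases, purified with the protein and sequenced. One group was Pol5-HTP, BY4741 yeast with a C-terminal His-TEV-ProteinA tag on the genomic copy of Pol5, and the other was untagged wild-type BY4741 (WT), whose genotype label reads wild type although its title reads WT-HTP. Both were crosslinked at 254 nm during exponential growth, and each was 1 library, so no spread between cultures could be estimated and no p-value was computed.

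Ribosome synthesis in yeast starts with the 35S pre-rRNA, and its 5′ ETS is removed and degraded while the small subunit is made. The 5′ ETS nucleates the SSU processome: the t-UTP (UTP-A) complex binds near the 5′ end of the transcript, and the UTP-B complex and the U3 snoRNA, which base-pairs with the 5′ ETS further downstream, join afterwards. Pol5, named for its similarity to DNA polymerases, is an essential nucleolar protein needed for rRNA synthesis. The comparison asks where in the leading part of the transcript RNA was recovered with Pol5 beyond what an untagged strain gives.

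High coverage in Pol5-HTP fell into 4 sites, which are shown in capitals in the sequence of the region to place each footprint in the transcript. A site was a stretch in which coverage reached at least 10% of the highest Pol5-HTP value on the 35S pre-rRNA, and stretches separated by up to 10 nt were merged. As Pol5-HTP coverage itself defined the sites, their excess over WT is a description. The letters are those of the deposited coverage, written as DNA, and RefSeq (assembly R64) lists ETS1-2 on chromosome XII with the same length of 700 nt.
Nucleotides 1 to 280: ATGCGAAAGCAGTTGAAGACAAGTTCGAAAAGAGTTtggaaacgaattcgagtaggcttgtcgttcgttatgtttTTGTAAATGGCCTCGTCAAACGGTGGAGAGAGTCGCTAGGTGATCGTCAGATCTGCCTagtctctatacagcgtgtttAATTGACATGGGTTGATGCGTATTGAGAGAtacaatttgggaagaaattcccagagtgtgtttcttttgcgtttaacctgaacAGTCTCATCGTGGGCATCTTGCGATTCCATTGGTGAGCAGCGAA
The core of each site, where coverage was at least 50% of the summit, is given with the nucleotides at or above 90% of the summit in capitals.
Site 1, nucleotides 1 to 36: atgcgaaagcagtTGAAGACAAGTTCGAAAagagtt
Site 2, nucleotides 93 to 130: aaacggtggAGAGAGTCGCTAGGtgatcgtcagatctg
Site 3, nucleotides 154 to 183: aatTGACATGGGTTGATGCGTattgagaga
Site 4, nucleotides 237 to 271: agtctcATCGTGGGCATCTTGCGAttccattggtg
The 4 cores were 30 to 38 nt long and differed in composition. T made up 19.4% of the core of site 1 and 34.3% of that of site 4, and G and C together 38.9% in site 1 and 52.6% in site 2.

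Coverage is given in normalized hits (per 1000000 mapped reads), the number of reads over a nucleotide relative to the total of the library, and does not measure amounts of RNA. Every value was a whole multiple of 2.16 normalized hits for WT and 0.570 for Pol5-HTP, within 0.01 reads, from which totals of 463950 and 1755048 mapped reads were recovered. The deposited class counts summed to 1092199 and 1073688 reads, so the coverage was scaled to other totals, and which reads entered them is not given in the sources used here. With the class totals the ratios to WT would be 3.85 times larger before any value is added. A floor of 3 reads therefore stood at 6.47 normalized hits for WT and 1.71 for Pol5-HTP. The coverage of the region required at least 1267 reads in WT and 44769 in Pol5-HTP, counted from the increases between neighboring nucleotides, and a read covered on average at most 33.1 and 36.4 of its nucleotides. All intervals are 95% intervals that cover counting error alone and not the spread between cultures. They count each read as a separate molecule, so any reads copied by PCR would make them too narrow.

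Mean coverage of the 280 nucleotides was 323 normalized hits for WT and 3317 for Pol5-HTP, which with 10 normalized hits added to each gave a log2 ratio of 3.32 (counting interval 3.24 to 3.40). The medians were 183 and 3426 normalized hits. Of all hits along the 35S pre-rRNA, the region took 11.4% in Pol5-HTP and 1.24% in WT. Of those along the 5′ ETS alone it took 56.4% and 47.5%. Pol5-HTP was above WT at 280 of 280 nucleotides, against 3566 of the 6858 of the transcript. It was also above WT at 361 of 361 nucleotides of ITS1, 232 of 232 of ITS2 and 400 of 420 of the rest of the 5′ ETS. At 2-fold or more, Pol5-HTP was higher at 280 nucleotides, against 36.0% of all nucleotides of the transcript, and lower at 0 nucleotides, against 24.5%. At 4-fold or more it was higher at 244 nucleotides, against 25.6%, and at 8-fold or more at 177, against 15.5%. WT had 3 reads or fewer at 45 of the 280 nucleotides, where the size of the ratio depends on the 10 normalized hits added. The scaling moved the level of the whole transcript: its median log2 ratio was 0.11 as deposited, 0.00 scaled to the 35S hits, 0.86 scaled by the 18S rRNA, taking the median ratio over its nucleotides, and 1.92 scaled to the totals of the class counts. Of the nucleotides of the transcript past 2-fold, 59.5% were higher in Pol5-HTP as deposited, 55.1% by 35S hits, 83.8% by the 18S rRNA and 99.0% by the class totals. All 280 nucleotides of the region were higher by 2-fold or more under each of these scalings. The share of all nucleotides of the transcript that were so was 36.0% as deposited and 34.0% by 35S hits. It was 47.7% by the 18S rRNA and 69.7% by the class totals.

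**Figure D1:**
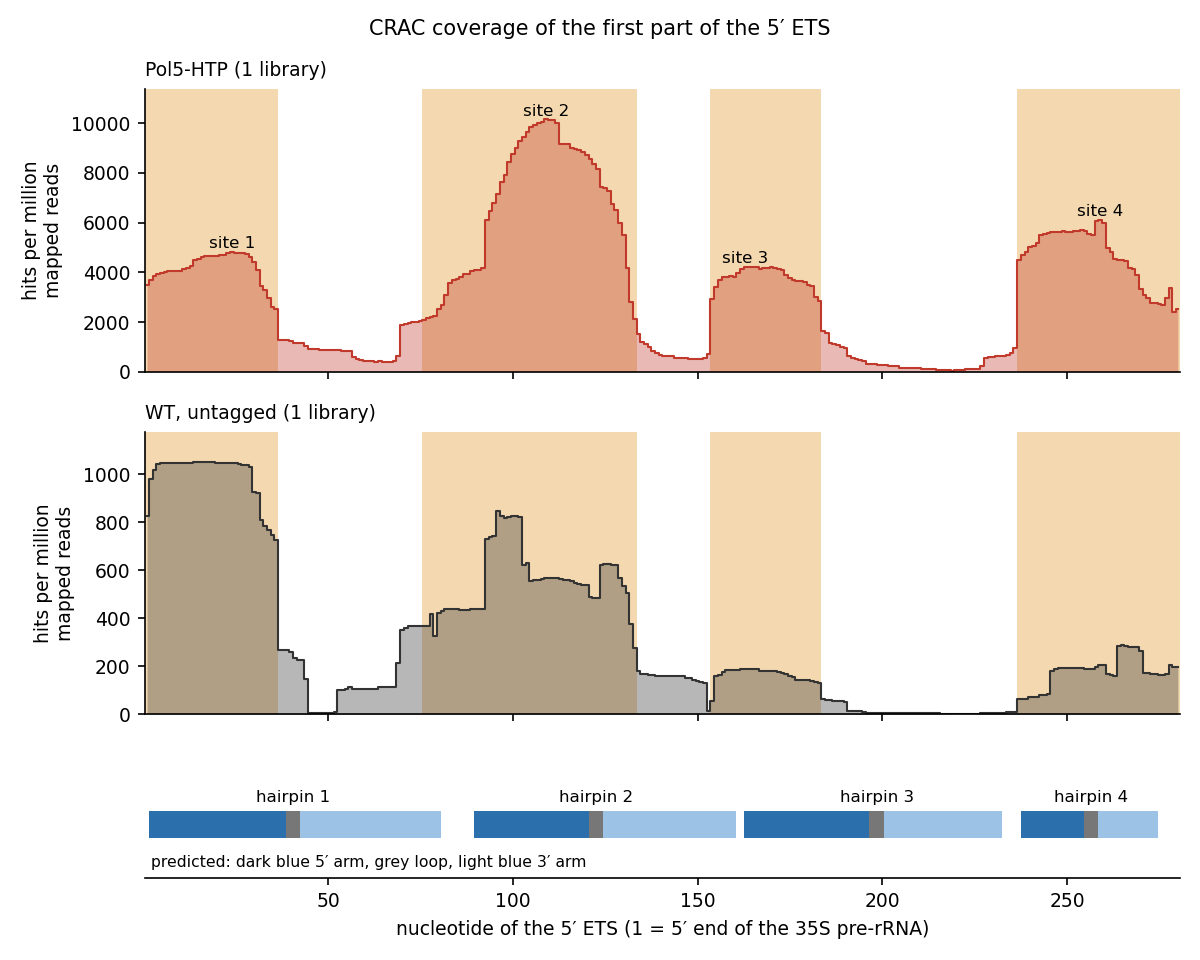
Coverage of nucleotides 1 to 280 of the 5′ ETS in normalized hits (linear axes that start at 0 and differ about 10-fold between the panels), 1 library per panel, with the 4 Pol5-HTP sites shaded and the arms of 4 predicted hairpins below. Pol5-HTP reached 10159 normalized hits in site 2, whereas WT reached 1052 at nucleotide 14 and was at or under 3 reads from nucleotide 196 to 233.

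Site 1 began at the very first nucleotide of the transcript and ended at nucleotide 36. Its Pol5-HTP summit at nucleotide 24 had 4813 normalized hits (8447 reads), against 1045 (485 reads) in WT, a ratio of 4.60 (exact conditional binomial interval 4.20 to 5.06). Coverage at nucleotide 1 was already 3497 normalized hits for Pol5-HTP and 828 for WT, or 72.7% and 78.7% of the highest value of the site. Both libraries dropped at the same place. From nucleotide 36 to 37, Pol5-HTP fell from 2510 to 1284 normalized hits, a loss of 48.9%, and WT from 726 to 269, a loss of 62.9%. The highest WT value of the region, 1052 normalized hits at nucleotide 14, lay in this site, which held 39.5% of the WT hits of the region and 16.2% of those of Pol5-HTP.

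Site 2 extended from nucleotide 76 to 133 and was the highest of the 4. Its summit at nucleotide 109 had 10159 normalized hits (17830 reads) for Pol5-HTP and 569 (264 reads) for WT, a ratio of 17.9 (15.8 to 20.2). It took 41.6% of the hits of the region in Pol5-HTP and 35.6% in WT. In WT the highest value of the site was at nucleotide 96, with 847 normalized hits, and a further maximum at nucleotide 126 had 627. Pol5-HTP had 7166 and 7294 normalized hits at these nucleotides, 8.46 and 11.6 times WT. A lower WT maximum, from nucleotide 109 to 111, had 569 normalized hits, and Pol5-HTP had 10139 at nucleotide 111, 17.8 times WT. Both libraries thus covered the site, with their highest values at different nucleotides. The lower WT maximum included the Pol5-HTP summit.

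Site 3 was the shortest, from nucleotide 154 to 183. Its summit at nucleotide 163 had 4215 normalized hits (7398 reads) for Pol5-HTP and 190 (88 reads) for WT, a ratio of 22.2 (18 to 27.7). It took 12.3% of the hits of the region in Pol5-HTP and 5.49% in WT. Coverage formed a plateau, with all nucleotides from 157 to 174 at 90% of the Pol5-HTP summit or more. From nucleotide 155 to 183 WT had 60 to 88 reads, and the log2 ratio stayed between 4.31 and 4.57.

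Site 4 began at nucleotide 237 and crossed the end of the region, reaching nucleotide 306. Its summit at nucleotide 259 had 6108 normalized hits (10719 reads) for Pol5-HTP and 207 (96 reads) for WT, a ratio of 29.5 (24.1 to 36.5). Over the 44 nucleotides up to 280, its means were 4620 normalized hits for Pol5-HTP and 177 for WT, a ratio of 24.7, and over its full length 3885 and 197, a ratio of 18.9, each with 10 added. At the border, nucleotide 280 had 2519 normalized hits and nucleotide 281 had 2578 in Pol5-HTP, and both had 198 in WT, so the limit of the region cut through the shoulder of the site.

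The ratio at the summit increased from site 1 to site 4. The intervals of site 1 and site 2 did not overlap, and neither did those of site 2 and site 4. The interval of site 3 overlapped those of both site 2 and site 4. Means over the whole sites gave ratios of 4.18, 11.8, 21.8 and 18.9 from site 1 to site 4, so sites 3 and 4 changed places. With the class totals, which multiply all ratios alike, they were 15.8, 44.4, 77.9 and 68.0. WT itself had no site by the same rule, since its highest value here was 5.37% of its maximum on the 35S pre-rRNA, whereas the highest Pol5-HTP value was 49.4% of its own.

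Between the sites Pol5-HTP also exceeded WT, but by a factor that differed from gap to gap. Over nucleotides 37 to 75 the means were 972 normalized hits for Pol5-HTP and 156 for WT, a ratio of 5.90, with the lowest Pol5-HTP value, 387 normalized hits, at nucleotide 67. Over nucleotides 134 to 153 they were 726 and 150, a ratio of 4.60, with the lowest value of 509 at nucleotide 151. Over nucleotides 184 to 236 they were 420 and 12.0, a ratio of 19.6 that rests on few WT reads and on the 10 normalized hits added. The lowest Pol5-HTP value of the region, 31.9 normalized hits or 56 reads, was at nucleotide 219, where WT had 0 reads. The 4 sites covered 168 of the 280 nucleotides and contained 92.0% of the coverage in Pol5-HTP and 89.2% in WT. In WT this share came mostly from sites 1 and 2, with 39.5% and 35.6%, whereas its means in site 3 (165 normalized hits) and in site 4 up to nucleotide 280 (177) were close to those of the first and the second gap. Across the 280 nucleotides, the Pearson correlation of both profiles was 0.58 and the Spearman correlation 0.75, as a description, since neighboring nucleotides share reads.

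WT hits lay closer to the 5′ end of the transcript than Pol5-HTP hits. In WT, the first 22 nucleotides held 25% of the hits and the first 84 held 50% of them. In Pol5-HTP these points were reached at nucleotides 90 and 117.

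The third gap held the longest stretch with hardly any WT coverage, from nucleotide 196 to 233, and its sequence is given because the ratios beside it rest on few WT reads.
Nucleotides 196 to 233: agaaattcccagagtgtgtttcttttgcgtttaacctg
WT had 0 to 3 reads at each of these 38 nucleotides, and 0 reads from nucleotide 219 to 225. Pol5-HTP had from 56 to 1132 reads there, with a mean of 231 normalized hits (406 reads), and WT a mean of 1.76 reads. No ratio is given for this stretch as a whole because WT had so few reads. T made up 39.5% of this stretch, against 30.4% of the region.

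In windows of 10 nt, Pol5-HTP was at least 2-fold above WT in 28 of 28 windows, against 35.4% of all 684 windows of the transcript, at least 4-fold in 25, against 23.7%, and at least 8-fold in 18, against 14.0%. The highest log2 ratios were 5.83 at nucleotides 231 to 240, 5.26 at 241 to 250 and 4.82 at 251 to 260. The WT means behind them were 14.5, 62.1 and 90.3 reads per nucleotide. The lowest were 1.81 at nucleotides 141 to 150, 1.94 at 1 to 10 and 1.94 at 61 to 70, with 71.8, 470 and 67.5 WT reads. With 10 added, the highest ratios thus lay at the 5′ end of site 4. With nothing added the highest window was 221 to 230, in the third gap, at a linear ratio of 108 on a mean of 1.1 WT reads, ahead of 231 to 240 at 74.6. The lowest ratios lay at the 5′ end of the transcript and in the first and the second gap.

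**Figure D2:**
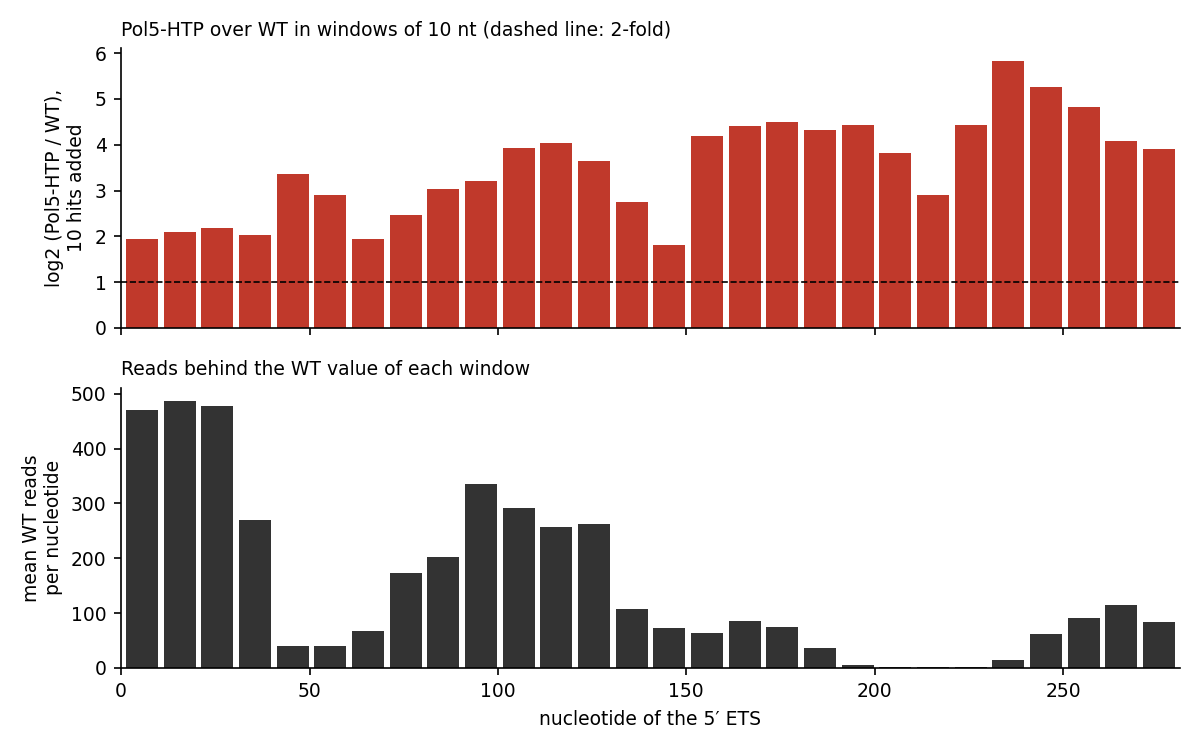
The upper panel shows the log2 ratio of Pol5-HTP over WT in 28 windows of 10 nt, with 10 normalized hits added, and the lower panel the mean number of WT reads per nucleotide in the same windows. Each window exceeded 2-fold (dashed line). The ratio peaked at 5.83, and the first 3 windows, with 470 to 487 WT reads, lay between 1.94 and 2.18.

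The edges of the coverage were examined next, because RNA fragments in CRAC are cut by RNases. RNace-IT, the mixture used, contains RNase A, which cuts after C and U, and RNase T1, which cuts after G. An edge was called steep when the number of reads changed by at least 10% of the highest read count of the library in the region. Pol5-HTP had 4 steep rises. They lay at nucleotide 70, with a gain of 2178 reads, at nucleotide 93, with 3377, at nucleotide 154, with 3910, and at nucleotide 237, with 6243. The base before the rise was T at nucleotides 70 and 154 and C at nucleotides 93 and 237. The next largest rise, of 976 reads at nucleotide 258 after a G, was below the threshold. At nucleotide 237, coverage rose from 949 to 4506 normalized hits for Pol5-HTP and from 10.8 to 64.7 in WT, or from 5 to 30 reads. At nucleotide 154 it rose from 701 to 2929 in Pol5-HTP and from 15.1 to 56.0 in WT, or from 7 to 26 reads. WT therefore also gained reads at both nucleotides, by less than the threshold for a steep edge, and gained more at nucleotide 155, where it reached 74 reads.

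Steep falls in Pol5-HTP followed nucleotides 36, 130, 131 and 183, with losses of 2152, 2383, 2376 and 2113 reads. The last base before the fall was T, G, C and A, respectively. As a share of the coverage before the step, these falls were 48.9%, 24.6%, 32.5% and 42.0% in Pol5-HTP. In WT the shares at the same steps were 62.9%, 6.02%, 25.6% and 51.7%. The next largest Pol5-HTP fall, of 1754 reads after the A at nucleotide 260, was below the threshold. WT had 6 steep rises and 7 steep falls. Of these, 2 rises, at nucleotides 70 and 93, and 2 falls, after nucleotides 36 and 131, were shared with Pol5-HTP, which is 2 of 4 of each kind in Pol5-HTP, 2 of 6 rises in WT and 2 of 7 falls in WT. The largest WT change was the fall after nucleotide 36, of 212 reads or 43.4% of its highest read count. Among the steep WT edges not shared were rises at nucleotide 124, of 64 reads, and nucleotide 264, of 58 reads, at both of which Pol5-HTP lost reads. Over all 279 steps, the changes of both libraries had a Pearson correlation of 0.47 and a Spearman correlation of 0.62, again as a description. C stood before 16.5% of the steps, but 33.2% of the summed gains of Pol5-HTP and 40.7% of those of WT followed a C. G stood before 27.6% of the steps, but 15% and 9.06% of the gains followed a G. For T these values were 30.5% of the steps and 30.7% and 27.7% of the gains, and for A 25.4%, 21.1% and 22.5%. The summed losses were spread differently. In Pol5-HTP, 29.0% of them followed an A, 19.0% a C, 24.0% a G and 28.1% a T. In WT these shares were 28.3%, 17.9%, 17.0% and 36.8%.

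**Figure D3:**
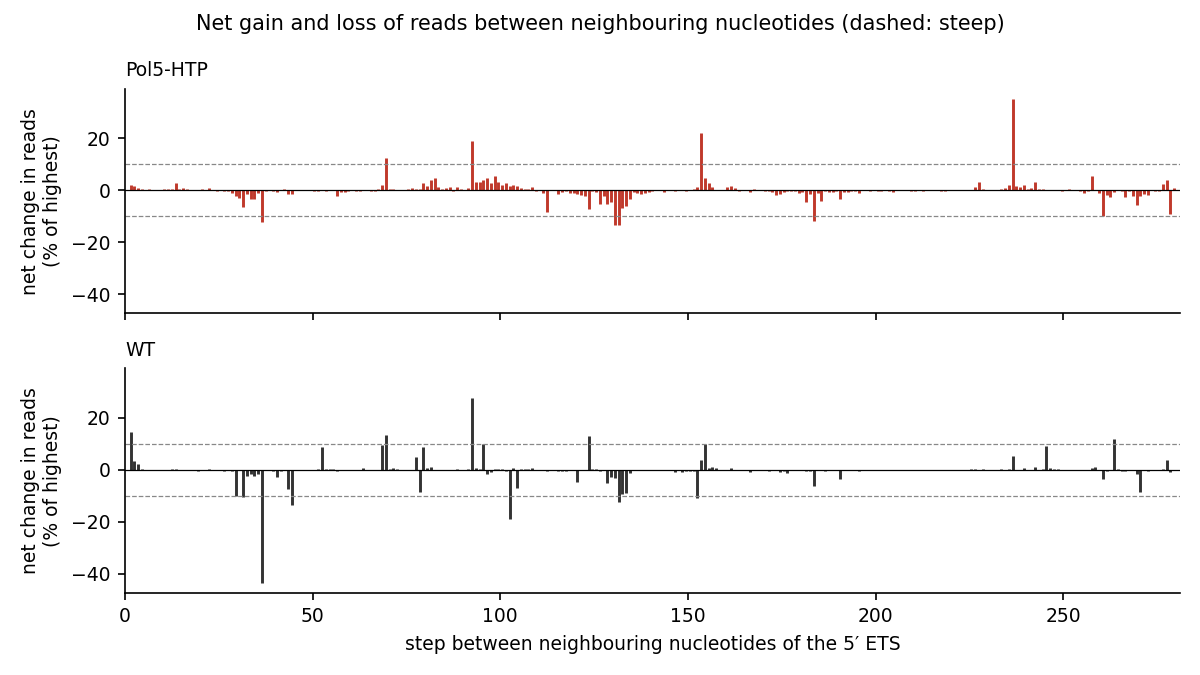
Net change in reads at each of the 279 steps between neighboring nucleotides, as a percent of the highest read count of each library in the region, with dashed lines at 10%. Rises at nucleotides 70 and 93 and falls after nucleotides 36 and 131 passed the lines in both libraries. The Pol5-HTP rise at nucleotide 237 reached 35% against 5.12% in WT. As a share of the coverage after the step, this rise was 78.9% in Pol5-HTP and 83.3% in WT.

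A fold of the naked RNA computed with RNAfold was used to relate the footprints to possible secondary structure. It had a minimum free energy of -105.8 kcal/mol and paired 204 of the 280 nucleotides (72.9%). Of its 102 pairs, 99 lay in 4 hairpins, of 29, 25, 30 and 15 pairs, and these 99 were kept when the whole 5′ ETS was folded. The hairpins are computed and were not measured. Their sequences are shown, with paired bases in capitals, because the coverage differed between their arms.
Hairpin 1, nucleotides 2 to 80: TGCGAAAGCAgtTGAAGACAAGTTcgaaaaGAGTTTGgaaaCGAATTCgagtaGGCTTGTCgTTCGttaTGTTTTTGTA
Hairpin 2, nucleotides 90 to 160: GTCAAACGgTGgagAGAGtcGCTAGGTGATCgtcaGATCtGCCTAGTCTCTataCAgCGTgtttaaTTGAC
Hairpin 3, nucleotides 163 to 232: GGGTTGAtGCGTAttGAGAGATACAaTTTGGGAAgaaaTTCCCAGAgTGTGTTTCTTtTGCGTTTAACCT
Hairpin 4, nucleotides 238 to 274: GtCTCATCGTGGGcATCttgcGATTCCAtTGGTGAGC
The split into arms was chosen after the values were seen, and was therefore described without a test.

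Pol5-HTP coverage of the 5′ arm was higher than that of the 3′ arm in 4 of 4 hairpins, and WT coverage in 3 of 4. In hairpin 1, the 5′ arm (nucleotides 2 to 38) had a mean of 4035 normalized hits for Pol5-HTP and 957 for WT, and the 3′ arm (43 to 80) 1099 and 170. Site 1 thus lay on the 5′ arm, and the shared fall after nucleotide 36 was near the end of this arm, before the loop at nucleotides 39 to 42. In hairpin 2, the 5′ arm (90 to 120) had 8428 normalized hits for Pol5-HTP and 628 for WT, and the 3′ arm (125 to 160) 2457 and 246. The core of site 2 covered most of the 5′ arm, the loop and the start of the 3′ arm. The end of this 3′ arm, nucleotides 154 to 160, was the start of site 3. The end of the 3′ arm of hairpin 1, nucleotides 76 to 80, was the start of site 2.

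In hairpin 3 the arms differed most. The 5′ arm (163 to 196) had 2719 normalized hits for Pol5-HTP and 116 for WT, and the 3′ arm (201 to 232) 207 and 3.37, where WT had 0 to 3 reads. The 5′ arm was 13.2 times the 3′ arm in Pol5-HTP, while in WT the 3′ arm was below the floor. Hairpin 4 was covered on both arms, with 5428 normalized hits on the 5′ arm (238 to 254) and 4186 on the 3′ arm (259 to 274) in Pol5-HTP. In WT the order was the opposite, with 136 on the 5′ arm and 223 on the 3′ arm. Pol5-HTP was thus 37.3 times WT on the 5′ arm of this hairpin and 18 times on the 3′ arm, with 10 added.

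**Figure D4:**
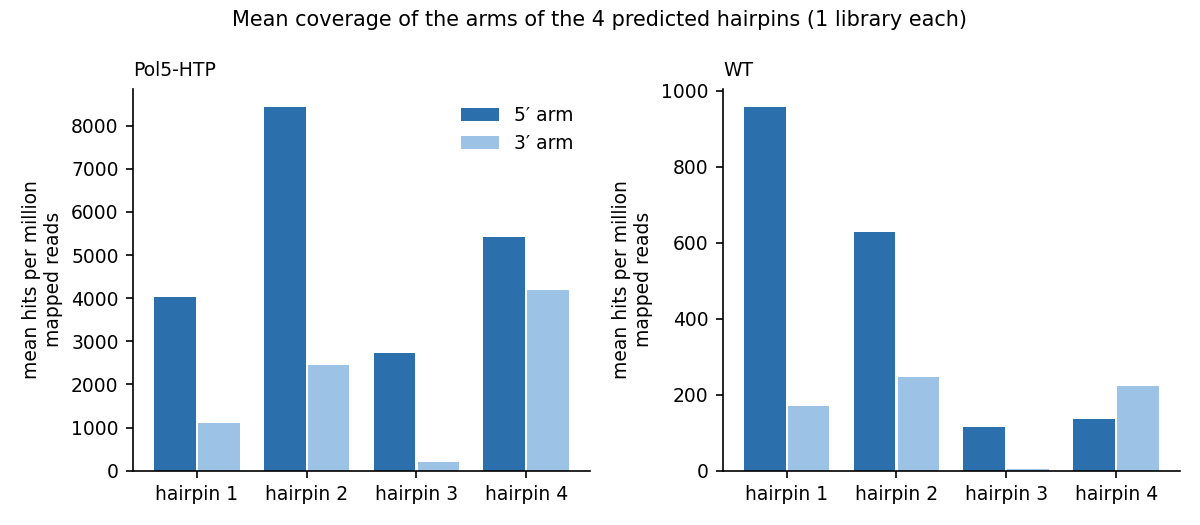
Mean normalized hits over the 5′ arm (dark) and the 3′ arm (light) of the 4 predicted hairpins, with 1 library per panel and axes that start at 0. The 5′ arm was higher in hairpins 1 to 3 in both libraries, whereas in hairpin 4 it was higher in Pol5-HTP (5428 against 4186) and lower in WT (136 against 223).

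The region was set beside the rest of the 5′ ETS, ITS1 and ITS2. The 3′ ETS was not compared here. The rest of the 5′ ETS, 420 nt, had means of 237 normalized hits for WT and 1709 for Pol5-HTP, with a log2 ratio of 2.80 (2.71 to 2.88). Its highest Pol5-HTP value was 7409 normalized hits, against 10159 in the region. ITS1 had means of 28.9 and 287 and a log2 ratio of 2.93 (2.77 to 3.09), and ITS2 had 135 and 2656 and a log2 ratio of 4.20 (4.06 to 4.33). The log2 ratio of the region was above that of the rest of the 5′ ETS and below that of ITS2 by more than the counting intervals. The distance to ITS1 depended on the 10 normalized hits added, as with nothing added the log2 ratios were 3.36 for the region and 3.31 for ITS1. The median log2 ratio over nucleotides was 3.54 in the region and 3.62 in ITS1. WT had 3 reads or fewer at 256 of the 361 nucleotides of ITS1, so its ratios rest on few WT reads. Such nucleotides numbered 76 of 420 in the rest of the 5′ ETS and 27 of 232 in ITS2. The share of nucleotides at 8-fold or more was 63.2% in the region, 32.9% in the rest of the 5′ ETS, 64.8% in ITS1 and 82.3% in ITS2. Each spacer was seen in 1 library per strain, so the order among them has no replicate check.

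**Figure D5:**
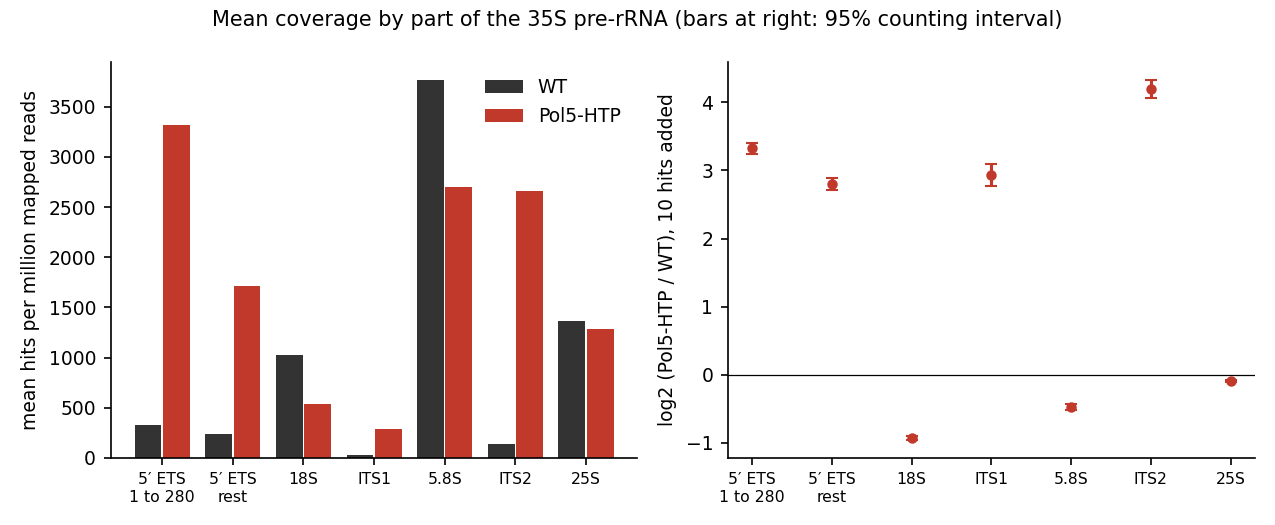
The left panel shows mean normalized hits for WT and Pol5-HTP over nucleotides 1 to 280, the rest of the 5′ ETS, 18S, ITS1, 5.8S, ITS2 and 25S (the 3′ ETS is not shown), and the right panel their log2 ratio with 10 normalized hits added and 95% counting intervals on the fewest reads that give the coverage. The region had a log2 ratio of 3.32, between ITS2 at 4.20 and ITS1 at 2.93, while 18S, 5.8S and 25S had ratios of -0.93, -0.48 and -0.09 as deposited. In ITS1, WT had 3 reads or fewer at 256 of 361 nucleotides, so its place depends on the 10 added.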

How the data were processed

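CRAC data from 1 WT and 1 Pol5-HTP library were analyzed. The authors collapsed identical sequences, trimmed reads with Flexbar, mapped them with Bowtie 2 (2.3.4.2 in the submitters' processing notes) to the yeast genome and counted RNA classes with pyCRAC. The genome release and the placement of reads matching both rDNA copies are not given in the sources used here, so no genome coordinates are printed. The deposited signal is coverage in hits per 1000000 mapped reads, and the deposited class counts are raw reads, which served only as a scaling alternative. Coverage relative to mapped reads does not measure amounts of RNA.

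Boundary nucleotides listed under both neighboring features (4) were counted once. Ratios of means and log2 ratios used 10 added normalized hits, unless stated, and linear ratios at single nucleotides or between arms used none. Region intervals took the fewest reads that give the coverage as Poisson counts. Python 3.11.15, numpy 2.4.6, scipy 1.17.1, matplotlib 3.10.9 and RNAfold 2.7.2 were used, and scripts were tested on simulated data. Positions named were site summits, up to 4 WT maxima at least 15 nt apart, the 3 highest and 3 lowest windows, the lowest value between sites, the ends and the 5 largest rises and falls. Alternatives changed the scaling, added value, region limits, summary, site definition, smoothing, window, edge threshold and folded length. Gap, arm and unshared-edge positions were added after their values were seen. The region and all lists were chosen with earlier results of these data known.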

Additional observations from a re-analysis of the deposited data

How the results depend on the processing

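The log2 ratio of the region stayed positive under every alternative run. It was 3.18 by 35S hits, 4.10 by the 18S rRNA and 5.21 by the class totals. It was 3.02 with 100 normalized hits added, 3.60 without 30 nt at each edge, 3.10 up to the start of site 4 and 4.15 by medians. Without site 1, an alternative chosen after seeing the data, it was 3.77. With the threshold at 30% of the library maximum 1 site was called in place of 4, site 2. With the class totals 279 nucleotides were at 8-fold or more in place of 177. Of all nucleotides of the transcript, 31.8% were so with the class totals, in place of 15.5%. All other counts of sites, windows and nucleotides were within 1.5 times. With the threshold for a steep edge at 20%, Pol5-HTP had 2 rises and 0 falls and WT had 1 of each. At 5%, Pol5-HTP had 6 rises and 14 falls and WT 12 and 15, of which 3 rises and 7 falls were shared. Ratios from nucleotide 196 to 233 are limited by WT depth. No paired analysis was possible because each group had 1 library.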

Other observations

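Base composition and predicted pairing were set against coverage as values only. T made up 25.6% of the nucleotides in the 4 sites and 37.5% of those between them, whereas G made up 30.4% and 23.2%. Mean Pol5-HTP coverage was 2794 normalized hits at T, 3375 at A, 3428 at C and 3774 at G. Over WT, the median log2 ratio was 3.35 at T, 3.58 at A, 3.75 at C and 3.56 at G. Nucleotides predicted to pair had a mean of 3305 normalized hits in Pol5-HTP and unpaired ones 3350, and in WT the means were 322 and 323. In the sites, 73.8% of the nucleotides were predicted to pair, and between them 71.4%. Neighboring nucleotides share reads, and coverage marks whole fragments and not the crosslinked base.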
